A study of Mus musculus with 12 samples.

Results

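Induced pluripotent stem (iPS) clones made by one method need not be alike, and here 3 methods were taken that had each given 2 clones, of which 1 lay nearer to fibroblasts. The clone of each method with the higher Pearson correlation with mouse embryonic fibroblasts (MEF) across all genes was set against the other clone of that method, its sister. The 3 clones so chosen, called fibroblast-like here, were BOiPS#1, POiPS#2 and OOiPS-TTF#2, and their sisters were BOiPS#2, POiPS#1 and OOiPS-TTF#1. These 6 arrays are part of a series of 12. The BOiPS clones came from embryonic fibroblasts given Bmi1 and Oct4. The POiPS clones came from embryonic fibroblasts that purmorphamine, a Smoothened agonist, had turned into neural stem cell-like (NSC-like) cells before Oct4 was added. The OOiPS-TTF clones came from adult tail-tip fibroblasts given oxysterol, an oxidised cholesterol derivative, and Oct4. The references were 1 array of MEF and 1 array of embryonic stem (ES) cells, of the 129/Ola strain. Every line had received Oct4 (Pou5f1), so Pou5f1 signals do not separate the RNA of the introduced gene from that of the cell's own gene.

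Fibroblasts hold a programme of collagens and other matrix proteins, matrix proteases, adhesion molecules and mesenchymal transcription factors that has to be silenced for a cell to become pluripotent. Mouse ES cells run a network led by Pou5f1, Sox2 and Nanog, join to each other through E-cadherin, and respond weakly to type I interferon, whereas fibroblasts respond strongly to it. Interferon acts through its receptor, the kinases Jak1 and Tyk2 and factors that include Stat2 and Irf9, which bind a short DNA element, the interferon-stimulated response element, beside their target genes.

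RNA was labelled with Cy3 and each sample was hybridised once to a one-colour Agilent array. A level below is the log2 processed signal of a gene's brightest probe minus the 75th percentile of its array, and a difference is the fibroblast-like clone minus its sister, both in log2 units. Values for 3 clones or 3 pairs are always given in the order Bmi1-Oct4, purmorphamine-Oct4 and tail-tip. The spread behind a mean is the SD over the 3 pairs, which holds differences between methods and clones, since each clone is 1 line on 1 array. The pairs were chosen on these same signals, so nothing below carries a test, and the counts describe these 6 arrays. In bulk RNA, fewer cells of a type and less RNA per cell cannot be told apart.

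The 75th percentile of the 6 arrays ran from 1862 to 2156 intensity units, and 61.5% to 78.4% of gene spots were well above background. The Bmi1-Oct4 and tail-tip pairs were each on 1 slide and the purmorphamine-Oct4 pair was split over 2. The fibroblast-like clones correlated with MEF at 0.839, 0.856 and 0.860, and their sisters at 0.807, 0.815 and 0.816. The 2 OOiPS clones, of a method outside the comparison, lay at 0.807 and 0.815. The values just inside and just outside the choice were therefore 0.839 for BOiPS#1 and 0.816 for OOiPS-TTF#1. With ES the fibroblast-like clones correlated at 0.913, 0.923 and 0.911, each below its sister (0.927, 0.935 and 0.921). Across genes, all 6 clones thus stayed nearer to ES than to MEF.

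**Figure D1:**
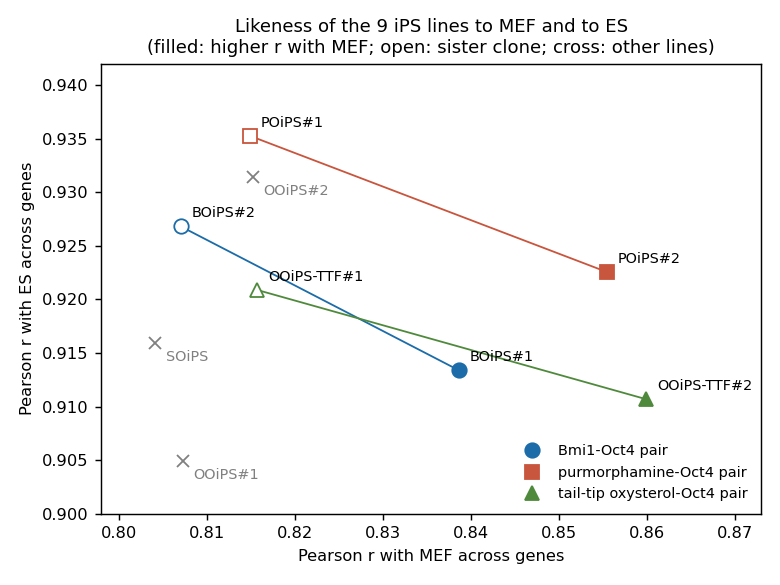
Pearson correlation of each of the 9 iPS arrays with the MEF array (x axis) and with the ES array (y axis), across 25427 genes. Lines join the 2 clones of a method: each filled point (fibroblast-like, r with MEF 0.839 to 0.860) lies to the right of and below the open point of its sister (0.807 to 0.816), and crosses are the 3 lines outside the comparison.

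The name fibroblast-like was checked against 9 fibroblast markers (Col1a1, Col1a2, Col3a1, Postn, Thy1, Pdgfrb, Fap, Twist1 and Prrx1). Their summed linear signal, in multiples of the array's 75th percentile, was 29.8 in POiPS#2 against 6.45 in POiPS#1, and 45.8 in OOiPS-TTF#2 against 7.12 in OOiPS-TTF#1. In BOiPS#1 it was 9.57 against 8.64 in BOiPS#2, near the 8.36 of ES, while MEF reached 108. OOiPS#1, outside the comparison, had 16.4, more than BOiPS#1. Postn, a matrix protein, and Fap, a surface protease of activated fibroblasts, were not well above background in any of the 6 clones. The summed markers thus go against the name for BOiPS#1, which was given for its correlation with MEF. Of the 9, Prrx1 was 4.78 higher in BOiPS#1 than in its sister. Some surface and matrix genes given below were higher there as well. The 6 ES markers (Pou5f1, Nanog, Sox2, Zfp42, Esrrb and Lin28a) summed to 95.6, 87.3 and 96.2 in the fibroblast-like clones and to 109, 107 and 123 in their sisters, against 99.9 in ES and 0.543 in MEF. The clones of the purmorphamine-Oct4 pair also differed in Y-linked RNA. Ddx3y, Eif2s3y and Uty lay at 1.71, 1.85 and -1.14 in POiPS#2 and were not well above background in POiPS#1. In the other 4 clones all 3 of these genes were well above background. Kdm5d, also Y-linked, was called higher, at -1.42, -3.97 and -1.29 against -9.09, -6.97 and -3.13, and was not well above background in BOiPS#2 or POiPS#1. Whether clones of a pair differ in sex or in loss of the Y chromosome was not tested.

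Of 25427 genes, 488 were at least 2-fold higher in the fibroblast-like clone of all 3 pairs and well above background in all 3 (1.92%), and 193 were at least 2-fold lower in all 3 and well above background in all 3 sisters (0.759%). These are the genes called higher or lower below. The choice of clones used this contrast, so nothing is read from the shares. The choice also favours calls in any list below whose genes are higher in MEF. Any 1 pair taken alone gave far more. The Bmi1-Oct4 pair had 3340 genes higher (13.1%) and 3977 lower (15.6%). The purmorphamine-Oct4 pair had 3152 (12.4%) and 3281 (12.9%), and the tail-tip pair 3800 (14.9%) and 3554 (14%). Among the 16292 genes well above background on all 6 arrays, 248 were called higher (1.52%) and 91 lower (0.559%). Most of what set a clone apart from its sister was therefore not found in the other pairs. Across the 25427 genes, the differences of the Bmi1-Oct4 pair correlated at 0.14 with those of the purmorphamine-Oct4 pair and at 0.16 with those of the tail-tip pair, and the latter 2 correlated at 0.24. No array is shared between pairs, but each pair was ordered by likeness to MEF, which favours positive correlations in advance. Genes near background are included and genes are not independent, so nothing is read from the sign of these correlations.

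The genes called higher were largely fibroblast genes by the reference arrays. Of the 488, MEF exceeded ES at least 2-fold for 396 (81.1%), lay within 2-fold of it for 49 and was at least 2-fold below it for 43. Their median difference between MEF and ES was 4.17. Over all genes, MEF was at least 2-fold above ES for 20.6%. Since the clones were chosen by likeness to MEF, this share was built into the comparison. The genes called lower mirrored this less closely. Of the 193, 103 (53.4%) were at least 2-fold lower in MEF than in ES, 27 were higher and 63 lay within 2-fold.

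**Figure D2:**
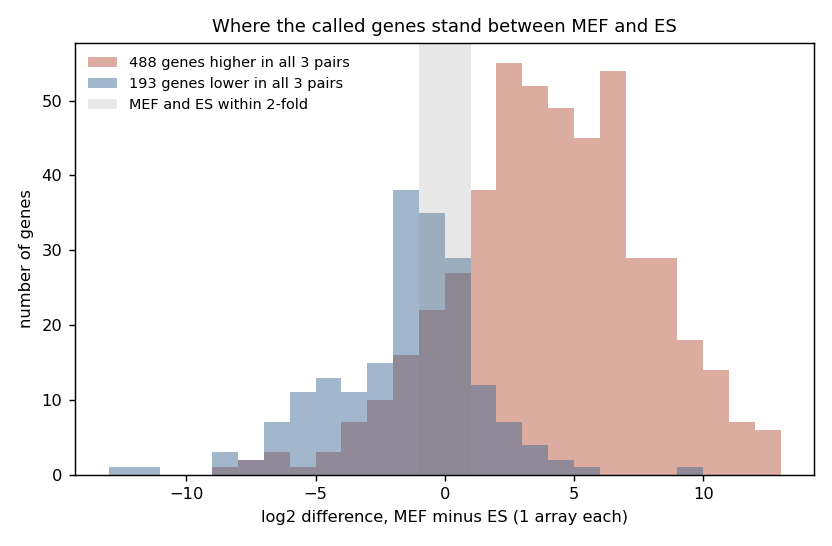
Number of genes (y axis) by the log2 difference between the MEF and ES arrays (x axis, bins of 1 log2 unit), for the 488 genes called higher and the 193 called lower in the fibroblast-like clones. The grey band marks MEF and ES within 2-fold: 396 of the 488 lie to its right, and 103 of the 193 to its left.

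Interferon-stimulated genes were the group with most members called. Of 42 measured, 20 were called higher (47.6%, against 1.92% of all genes) and none lower. In 33 the difference was positive in all 3 pairs, against 13.6% of all genes. The median difference of the list was 2.01, with 1.76, 1.81 and 2.07 in the single pairs, while the median of all genes was -0.07. The list thus stood about as high in BOiPS#1 as in the other fibroblast-like clones, unlike the fibroblast matrix list, whose median in that pair was -0.10.

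The response element can be seen in the promoters of many of these genes, and the stretches around it are printed for 9 of the genes called. The search fixed the letters GAAA, so the likeness of the elements to each other is no result. The 250 bases before each start site, from RefSeq on GRCm38.p6, were searched on both strands for GAAA, any 2 bases and GAAA again, with overlapping matches counted. It was found in 11 of the 15 called interferon genes that had a promoter sequence, in 5 of the 15 others of the list, in 17 of the 302 called genes outside the list (5.63%), and in 484 of 14731 measured genes in all (3.29%). Each stretch below runs 5′ to 3′ along the gene's strand, with the element in capitals. Where the capitals begin with TTTC, the element is on the opposite strand.
Ifit1 (chr19:34640765-34640833, plus strand): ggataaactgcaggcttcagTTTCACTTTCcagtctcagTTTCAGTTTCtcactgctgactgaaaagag
Ifit3 (chr19:34583353-34583436, plus strand): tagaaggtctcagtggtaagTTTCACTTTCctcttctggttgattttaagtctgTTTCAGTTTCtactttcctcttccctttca
Rsad2 (chr12:26456543-26456592, minus strand): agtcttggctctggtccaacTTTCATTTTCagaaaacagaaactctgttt
Gbp2 (chr3:142620584-142620633, plus strand): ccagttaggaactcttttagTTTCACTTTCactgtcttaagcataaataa
Gbp3 (chr3:142559979-142560034, plus strand): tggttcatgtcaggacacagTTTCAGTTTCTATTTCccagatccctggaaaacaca
Igtp (chr11:58199502-58199551, plus strand): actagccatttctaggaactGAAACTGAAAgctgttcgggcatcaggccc
Irgm1 (chr11:48871421-48871470, minus strand): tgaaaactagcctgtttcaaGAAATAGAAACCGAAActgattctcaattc
Ifi203 (chr1:173942498-173942547, minus strand): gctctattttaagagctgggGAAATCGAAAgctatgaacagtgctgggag
Ifi205 (chr1:174031860-174031909, minus strand): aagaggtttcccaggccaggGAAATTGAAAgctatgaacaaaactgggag

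A match in these letters is a description and shows no binding. Ifit1 and Ifit3 each carry 2 elements, and Gbp3 and Irgm1 carry 2 that overlap.

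Ifit1, an RNA-binding antiviral protein, lay at 2.89, 2.66 and 2.90 in the fibroblast-like clones and at -2.06, -6.89 and -3.10 in their sisters. The groups were far apart, the 3 fibroblast-like clones were nearly equal and close to MEF (3.28), and ES (-7.31) and POiPS#1 were not well above background. The mean difference was 6.84 ± 2.41 (SD, n = 3 pairs). Oasl2, a 2′-5′ oligoadenylate synthetase-like protein, lay at 1.26, 1.11 and 0.73 against -5.87, -7.00 and -4.88 in the sisters, a difference of 6.95 ± 1.26. Rsad2, the antiviral enzyme viperin, lay at 2.00, 1.15 and 2.55 against -5.01, -4.06 and -2.74, and differed by 5.83 ± 1.02, while 2 dimmer Rsad2 probes gave means of 1.65 and 0.57. For these genes too every fibroblast-like clone stood above every sister. Ifi44 differed by 5.60 ± 0.54, Ifi27 by 5.69 ± 1.65 and Rtp4, a chaperone of receptors, by 7.04 ± 1.53. Rtp4 levels were 2.26, 2.11 and 2.08 in the fibroblast-like clones, again almost equal.

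Where a gene was not well above background in any sister, the fold is a lower bound, from the mean of the fibroblast-like clones and, for each sister, the higher of its own signal and the lowest signal that its array measured above background. Ifit3, the partner of Ifit1, was at least 70.2-fold higher by this bound. Ifi203, of the DNA-sensing p200 family, was at least 140-fold higher, with levels of -0.31, 1.45 and 1.86. The GTPases that attack the vacuoles of intracellular microbes were among the genes called. Gbp3 was at least 21.3-fold higher and Iigp1 at least 28.2-fold. Gbp2 differed by 3.20 ± 0.42, Igtp by 3.01 ± 2.18 and Irgm1 by 1.69 ± 0.31, with other Irgm1 probes at 0.07 and 4.23. The others called were Trim30a, Usp18 (the protease that removes Isg15 from proteins), Ifi204, Ifi205, Ifitm3, Oasl1 and the chemokine gene Cxcl10, whose levels of 0.36, -0.66 and 0.40 stood above -2.55, -3.66 and -1.89 in the sisters. Members of the Ifit, Gbp, Ifi200 and Oas families resemble each other, and how far their probes cross-react was not tested.

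Several interferon genes that are standard readouts were close between sisters. Isg15, a ubiquitin-like protein, was already abundant in the sisters (2.39, 2.12 and 2.16) and in ES (1.80), and differed by 0.32 ± 0.07. Its fibroblast-like levels of 2.73, 2.36 and 2.54 overlapped those of the sisters. Mx1 (-0.10 ± 0.44) and Ifit2 (0.10 ± 0.32) were low on all 6 arrays and low in MEF too (-4.19 and -3.57), although a second Ifit2 probe gave 1.92. Oas1a went opposite ways, with differences of 2.95, 0.73 and -1.53, as did the RNA sensor Ifih1 (-2.56, 6.16 and 7.14) and Mx2 (1.45, -0.63 and 5.53). Ifitm1, which ES cells express, was lower in MEF than in ES and differed by -0.53, 0.02 and -1.57.

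Genes that carry the interferon signal were set beside the targets. Stat2 differed by 0.47, 1.61 and 0.53, and Irf9 by 0.65 ± 0.17. Irf7, the factor that amplifies the response, differed by 0.46, 0.36 and 2.63. Among 29 further genes of the pathway, listed after the values had been seen, 1 was called, the cytokine-receptor kinase Jak2 (1.07, 1.48 and 2.55). None of 11 type I interferon ligand genes was called. With 1.92% of all genes called higher and 0.759% lower, 11 or 29 genes would hold few calls in any case. Ifnb1, the interferon that fibroblasts make first on infection, was well above background in OOiPS-TTF#2 among the fibroblast-like clones (-2.36) and not in BOiPS#1 or POiPS#2, and among the sisters only in BOiPS#2 (-5.99). Ifnz, interferon zeta, differed by -2.05, 2.58 and 2.99. Ifng was not well above background on any of the 6 arrays. Of the receptors, Ifnar1 differed by -0.03, 0.73 and -0.64 and Ifnar2 by 0.41, 0.58 and 1.46, with a mean of 1.57 from a second probe. Ifngr2, of the receptor for interferon gamma, differed by 0.54, 2.61 and 2.30, and a second probe gave 2.20. Cgas, the sensor of cytosolic DNA, was lower in each fibroblast-like clone, by less than 2-fold (-0.64, -0.89 and -0.61).

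Part of the antigen presentation machinery was higher as well. Of 24 measured genes of the MHC class I and antigen processing list, 5 were called higher and none lower. The share called higher was 20.8%, against 1.92% of all genes, and the median difference was 0.39. Psmb8, an inducible subunit of the immunoproteasome, lay at 3.39, 3.34 and 3.35 in the fibroblast-like clones against -0.14, -0.07 and -0.33 in the sisters, a difference of 3.54 ± 0.13. These levels exceeded that of MEF (2.47). B2m, the light chain of class I molecules, lay at 3.85, 4.63 and 4.94 against 2.11, 2.04 and 2.47, with saturated spots in OOiPS-TTF#2. H2-D1 differed by 2.37 ± 0.26 and H2-Q7 by 1.26 ± 0.23, and H2-T10 was at least 31.1-fold higher. A second H2-D1 probe gave a mean of 0.09. The peptide transporter genes Tap1 (0.02) and Tap2 (0.06) were not called.

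**Figure D3:**
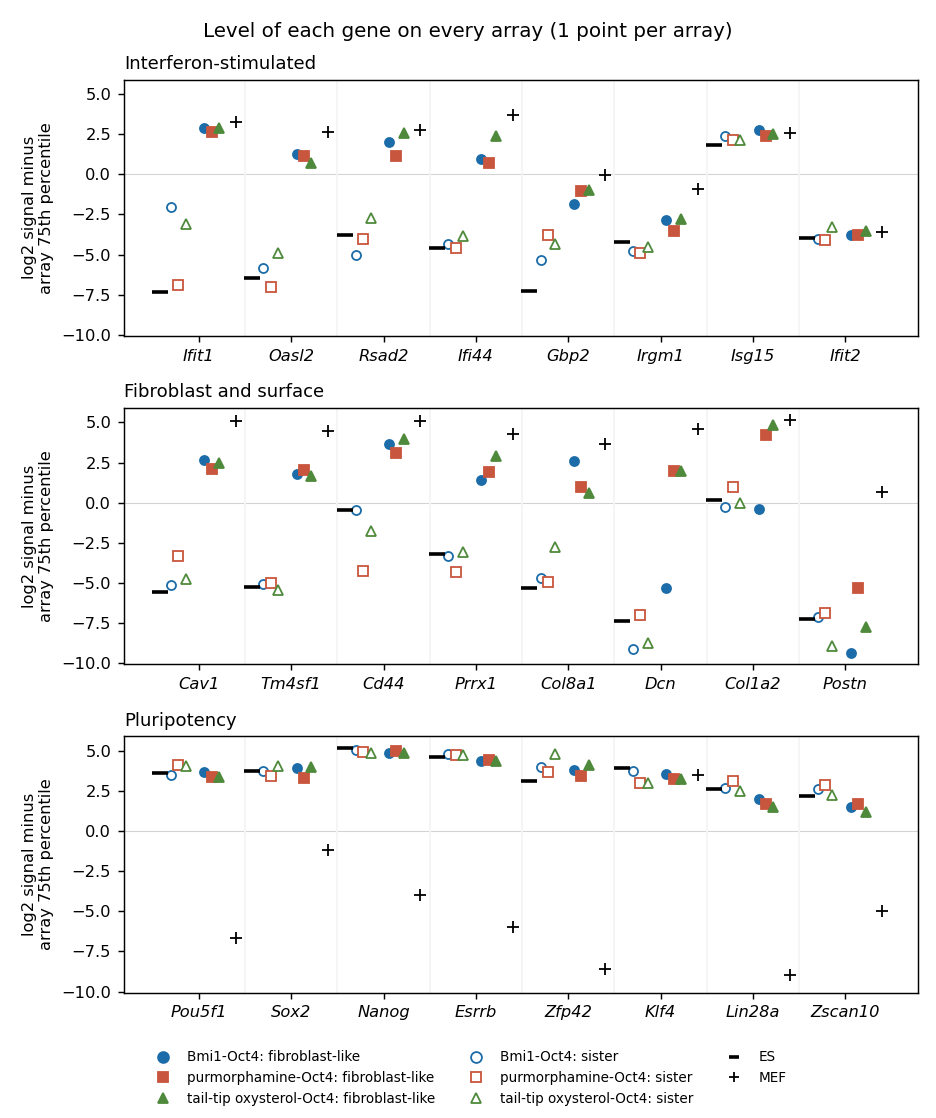
Level of each gene (log2 signal minus the 75th percentile of the array, y axis) on the ES array, the 3 sisters (open), the 3 fibroblast-like clones (filled) and the MEF array, 1 point per array. Ifit1, Oasl2, Rsad2, Cav1 and Tm4sf1 separate the filled from the open points, and Col1a2 separates them in 2 of the 3 pairs. Of the pluripotency genes, Pou5f1, Sox2 and Nanog overlap between the groups, while Esrrb, Lin28a and Zscan10 are lower in every filled point. Postn in all 6 clones and Dcn in the 3 sisters were not well above background.

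Chemokine and cytokine genes had the highest list median, 2.81, with 9 of 20 called higher (45%, against 1.92% of all genes) and none lower. The median was 0.49 in the Bmi1-Oct4 pair, 3.64 in the purmorphamine-Oct4 pair and 4.27 in the tail-tip pair. Cxcl1, a neutrophil attractant, lay at 4.23, 3.03 and 3.90 in the fibroblast-like clones and at -4.77, -3.71 and -2.97 in the sisters, a difference of 7.53 ± 1.27. The MEF spots were saturated (5.05), and all 3 sisters were at or below ES (-2.84). Cxcl5, of the same class, differed by 7.33 ± 3.03, with levels of 1.71, 1.50 and 1.58. Csf1, the growth factor of macrophages, lay at 1.06, 1.11 and 1.13 against -5.38, -3.47 and -3.48. Ccl9, Ccl5, Ccl7 and Il11 were called too. The interleukin Il33 (8.36, 4.29 and 2.76) was called together with its receptor gene Il1rl1. Il1rl1 had the largest smallest-pair difference of all genes with a symbol, lying at -1.05, 0.81 and -0.63 in the fibroblast-like clones and at least 57.4-fold above the sisters, where it was not well above background. Other probes of Il1rl1 gave means of 0.97 and 3.89.

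Other members of this list separated BOiPS#1 from the other fibroblast-like clones. Ccl2, a monocyte attractant, differed by -0.12, 2.99 and 3.92, Cxcl12 by -0.41, 4.23 and 4.95, and Ccl8 by -0.94, 6.92 and 8.93. Il6 differed by 0.17, 5.15 and 8.14. Neither Ccl8 nor Il6 was well above background in BOiPS#1 or in any sister, so the size of their differences is rough. Markers of macrophages were looked at beside these genes, since macrophages also make chemokines. The summed signal of Ptprc, Csf1r and Cd68 was 5.66, 3.33 and 3.39 in the fibroblast-like clones and 6.37, 8.67 and 2.28 in the sisters, so the groups overlapped. Ptprc, the pan-leukocyte surface marker, was not well above background in POiPS#2 or OOiPS-TTF#2. These sums use the brightest probes. Other Ptprc probes gave mean differences of 2.89, 0.39 and 1.28, and other Csf1r probes 1.95 and 0.52. Of 19 macrophage and leukocyte genes, 1 was called higher (Lyz1, at least 9.92-fold) and 1 lower (Itgam, -3.38 ± 1.85). With 1.92% of all genes called higher and 0.759% lower, nothing is read from these counts. The list median was 0.33, and 0.83 with the mean of all probes of a gene. Clec4d (at least 26.3-fold) and Msr1 (2.61, 6.94 and 3.47), outside that list, were called higher too. The part of macrophages in these differences was not tested.

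Surface and cytoskeletal genes of fibroblasts had 6 of 24 members called higher (25%, against 1.92% of all genes) and none lower. Their median was 1.65. Cav1, the coat protein of caveolae, lay at 2.67, 2.12 and 2.46 in the fibroblast-like clones and at -5.14, -3.34 and -4.78 in the sisters, a difference of 6.84 ± 1.22. Cd44, the hyaluronan receptor, lay at 3.62, 3.11 and 3.96 against -0.46, -4.25 and -1.77, a difference of 5.72 ± 1.64. OOiPS#1, outside the comparison, lay between the groups for both (0.58 and 1.52). For both genes the groups did not overlap. The MEF spots of both were saturated (5.10 and 5.11), so the distance to MEF is not known. Tm4sf1, a tetraspanin-like membrane protein outside the list, gave a large and even difference, 6.99 ± 0.12, from levels of 1.77, 2.05 and 1.64 against -5.09, -4.98 and -5.45. Anxa1 differed by 3.45 ± 0.48, S100a4 by 2.66 ± 0.84 (saturated in BOiPS#1) and Anxa2 by 1.96 ± 0.25. Thy1, a classical fibroblast surface marker, was not called (-2.29, 0.86 and -0.60), nor was vimentin (Vim; 0.54, 1.35 and 1.60), although a second Vim probe gave a mean of 3.99.

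Mesenchymal regulators had 7 of 24 members called higher (29.2%, against 1.92% of all genes) and none lower, with a median of 0.70. With the mean of all probes of a gene 4 were called, and the median was 1.84 without the Bmi1-Oct4 pair and 1.08 without the tail-tip pair. Prrx1, a homeodomain factor of limb and dermal mesenchyme, lay at 1.43, 1.91 and 2.91 against -3.35, -4.34 and -3.10 in the sisters. It differed by 5.68 ± 0.79, and its 5 other probes gave means from 0.19 to 10.05. Runx2, a factor of bone formation, differed by 5.82 ± 1.48 (other probes 3.84, -0.77 and 1.03), Twist2 by 4.61 ± 0.79, Tgfb3 by 3.69 ± 0.48 and Zeb2 by 2.77 ± 0.63. Other Zeb2 probes gave 0.63, 1.96, 2.02 and 0.48. Tgfbr2 and Nfix were the other members called, each by its brightest probe, since second probes gave -0.81 and -0.01. The best-known repressors of epithelial genes were not all among them. Zeb1 was level (0.00), Twist1 differed by 0.50 ± 0.16 and Snai1 by -3.05, 1.69 and 2.81.

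Of 20 contractile genes and YAP targets, 5 were called higher (25%, against 1.92% of all genes) and 1 lower (against 0.759%). Ankrd1, a target of the mechanosensitive cofactor YAP, was at least 99.3-fold higher, at 1.86, -0.32 and -0.02. Ccn1 (4.15 ± 0.66), Axl (3.49 ± 0.60) and Cnn2 (1.45 ± 0.36) were called higher too. Acta2, smooth muscle actin, was the member called lower, with levels of 0.86, 1.35 and 1.51 against 1.93, 3.17 and 3.05. That call rests on its brightest probe, since 4 other Acta2 probes gave positive means of 0.38 to 3.53. Of 19 matrix proteases and inhibitors, 5 were called higher (26.3%, against 1.92% of all genes) and none lower. They included the stromelysins Mmp3 (6.31 ± 2.91) and Mmp10 (at least 43.8-fold) and the collagenase Mmp13 (5.65 ± 1.24). The others were the plasminogen activator Plat (3.35 ± 1.11, and 0.91 with a second probe) and the inhibitor Timp2 (3.13 ± 0.93). The protease median of 0.85 was 1.90 without the Bmi1-Oct4 pair and 1.33 without the tail-tip pair, and the contractile median of 0.47 was 0.87 without the purmorphamine-Oct4 pair.

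The matrix itself divided the pairs. Of 36 matrix genes, 9 were called higher (25%, against 1.92% of all genes) and none lower. The list median was 1.00 over the pairs but -0.10 in the Bmi1-Oct4 pair, 1.04 in the purmorphamine-Oct4 pair and 1.99 in the tail-tip pair. Without the tail-tip pair the median fell to 0.24. Lox, the enzyme that cross-links collagen and elastin, was high in all 3, at -0.36, 1.22 and 2.38, and at least 148-fold above its sisters. OOiPS#1, outside the comparison, had Lox at 0.16, above BOiPS#1. Col8a1 lay at 2.61, 0.99 and 0.63 against -4.67, -4.96 and -2.78, highest in BOiPS#1. Col5a2 differed by 4.56 ± 0.36 and Thbs1, an adhesive glycoprotein, by 5.85 ± 2.99, with smaller means from other Thbs1 probes (1.19 and 1.22). OOiPS#1 had Thbs1 at 0.45, also above BOiPS#1 (-2.26). Dcn, a collagen-binding proteoglycan, was at least 51.2-fold higher, although its level in BOiPS#1 was -5.29 against 1.97 and 1.96 in the other clones. The remaining members called were Fbln2, Fbln5, Bgn and Prelp. Second probes gave means of 0.11 for Fbln5, 1.75 for Bgn and 0.56 for Prelp.

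The main collagens of fibroblasts were not raised in BOiPS#1. Col1a2 lay at -0.37, 4.19 and 4.84 in the fibroblast-like clones and at -0.25, 0.96 and -0.00 in the sisters. POiPS#2 and OOiPS-TTF#2 were high, and BOiPS#1 lay at the level of its sister, while the MEF spots were saturated. A second, dimmer Col1a2 probe gave a mean of 0.36. The proteoglycan gene Lum differed by -2.10, 5.70 and 7.15, and Col6a3 by -7.11, 2.34 and 7.91. The brightest Col1a1 probe was nearly level between MEF and ES (0.68 and 0.73) and differed by -0.17, 0.22 and 0.72, whereas its other probes gave means of 5.56 and 3.09. Sparc was level (-0.05).

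The same split appeared when levels were set against MEF. Among genes at least 8-fold higher in MEF than in ES, the 26 of the interferon list stood at a median of 28.6%, 31.2% and 38.4% of the linear MEF signal in the fibroblast-like clones, and at 2.67%, 2.41% and 4.04% in the sisters. The 25 matrix genes stood at 2.52%, 10.2% and 16.2% against 1.56%, 2.28% and 2.25%. The 13 surface genes stood at 3.61%, 15.4% and 21.9%, and the 15 mesenchymal regulators at 9.56%, 11.6% and 19.5%. Over all 1661 such genes the medians were 11.4%, 24.2% and 22.8% against 8.12%, 12.8% and 10%. In BOiPS#1 the interferon genes were therefore far nearer to MEF than the matrix genes were, and in the other clones the 2 lists differed less. OOiPS#1, outside the comparison, exceeded BOiPS#1 for the matrix genes (5.17%), the surface genes (5.09%) and all 1661 genes (14.2%). It was below BOiPS#1 for the interferon genes (5.12%) and the mesenchymal regulators (4.69%). Signals not well above background were raised to at least the lowest signal that their array measured above background. That floor was -7.27 in BOiPS#1, -4.51 in POiPS#2 and -5.13 in OOiPS#1. Of the 1661 genes, 80.6%, 64.9% and 57.3% were well above background in these clones, so the medians over all 1661 depend in part on the floors. Linear ratios of dim signals are imprecise, and ES itself stood at 2.47% for the interferon genes and 1.90% for the matrix genes.

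**Figure D4:**
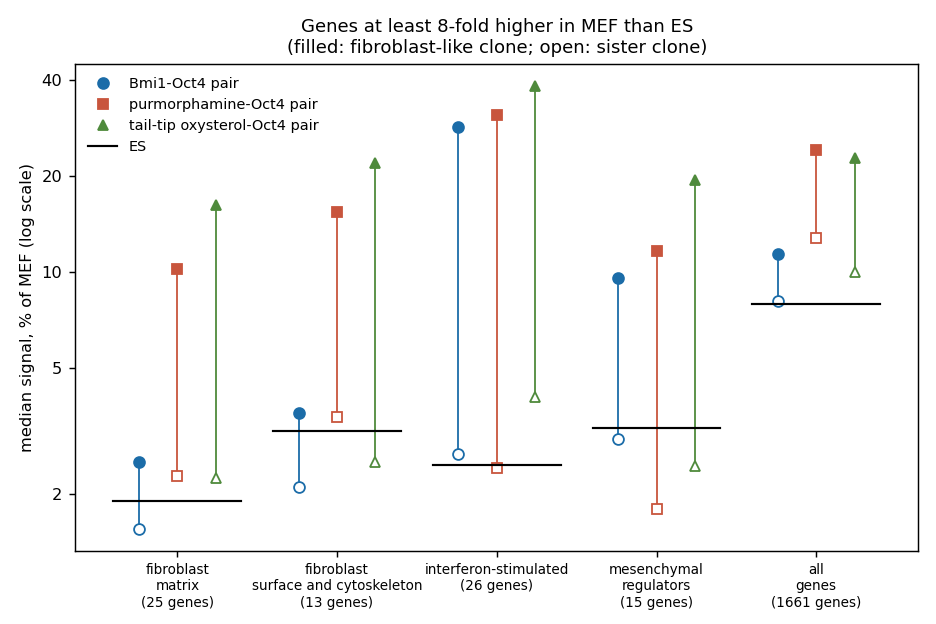
Median signal as a percentage of the MEF signal (y axis, log scale) for genes at least 8-fold higher in MEF than in ES, by gene list, with lines joining each fibroblast-like clone (filled) to its sister (open) and a bar for ES. Interferon genes stand at 28.6% to 38.4% in all 3 fibroblast-like clones, while matrix genes stand at 2.52% in BOiPS#1 and at 10.2% and 16.2% in the other 2. Dim signals were raised to at least the lowest signal that their array measured above background.

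The pluripotency genes were tabulated in the same way. Of 36 measured, all well above background in all 6 clones, 1 was called lower and none higher. In 21 the difference was under 2-fold in each pair, against 40.4% of all genes and 53.4% of those above background on all 6 arrays, a share near that of the list, from which nothing is read. The list median was -0.37, with -0.31, -0.24 and -0.36 in the single pairs. In 20 genes the sign was negative in all 3 pairs, against 19.2% of all genes, and in 1, Fut9, it was positive. Sox2 lay at 3.91, 3.32 and 4.01 in the fibroblast-like clones and at 3.76, 3.42 and 4.08 in the sisters, so the groups overlapped, and it differed by -0.01 ± 0.14. Nanog lay at 4.88, 4.96 and 4.86 against 5.08, 4.92 and 4.88 (-0.06 ± 0.12), but its spots were saturated in 4 of the 6 clones, which can hide a difference. Pou5f1 lay at 3.68, 3.36 and 3.35 against 3.49, 4.12 and 4.08, a difference of -0.43 ± 0.55. In MEF these genes were at -1.16, -3.96 and -6.66.

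Some genes with no saturated spots had small differences that were even across pairs. Esrrb, a nuclear receptor of the naive network, differed by -0.38 ± 0.08, and its levels of 4.35, 4.45 and 4.35 were all under those of the sisters (4.81, 4.75 and 4.72), but a second probe gave a mean of 0.14. Zfp42, also called Rex1, differed by -0.36 ± 0.25, Rex2 by -0.77 ± 0.09 and Dnmt3l by -0.46 ± 0.29. Lin28a, which blocks maturation of let-7 microRNAs, lay at 1.98, 1.71 and 1.47 against 2.67, 3.14 and 2.51 and differed by -1.06 ± 0.37. It missed the call in the Bmi1-Oct4 pair. Zscan10, a zinc finger partner of Sox2 and Oct4, was the member called lower. It lay at 1.49, 1.69 and 1.16 against 2.59, 2.89 and 2.24, and differed by -1.13 ± 0.07. The brightest probes of Klf2, Dppa5a, Tbx3 and Sall4 gave means from -0.10 to 0.00 but were saturated on most of the 6 arrays, which can hide a difference, and second probes gave -0.91, -0.06, -0.70 and -0.32. Klf4, which fibroblasts also express, differed by 0.09 ± 0.24.

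For some pluripotency genes the pairs were unlike each other. Each pair is 1 clone against 1 clone, so method and clone cannot be told apart. Tfcp2l1, a naive-state factor, differed by 0.08, -0.31 and -2.19, Klf5 by 0.44, -1.78 and 0.17, and Dppa3 by 0.80, 1.74 and -2.61. Other Tfcp2l1 probes gave means of 0.01, 0.32 and -3.24. The Nodal antagonist Lefty1 differed by -3.39, 0.59 and 1.77, and Gdf3 by -2.41, -0.64 and -0.76. Among 23 germline and 2-cell stage genes none was called, and with 1.92% of all genes called higher and 0.759% lower nothing is read from this. Zscan4c, expressed in the rare ES cells that resemble the 2-cell embryo, differed by -3.94, -0.25 and -0.93, so that its low mean came mainly from BOiPS#1.

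Epithelial genes had a median of -0.07, equal to that of all genes, with -0.05, -0.45 and 0.55 in the single pairs. None of 28 was called in either direction. With 1.92% of all genes called higher and 0.759% lower, nothing is read from that count. Cdh1, E-cadherin, lay at 1.86, 2.55 and 2.84 against 2.01, 3.17 and 3.33 and differed by -0.42 ± 0.25, while it was not well above background in MEF. Epcam differed by 0.21, -1.09 and 0.06. The sign of this list's median is not settled, since it turned to 0.05 with another scaling and to 0.08 without the purmorphamine-Oct4 pair. Of 30 mitosis and replication genes none was called, a count from which again nothing is read. By sign alone 16 were lower in all 3 pairs, against 19.2% of all genes, and none higher, against 13.6%, with a median of -0.33. The replication licensing gene Cdc6 was the lowest, at -1.84, -0.96 and -1.54. Cell cycle inhibitors went the other way in 2 cases. The Ink4 gene Cdkn2b differed by 2.05, 4.25 and 2.69 and Cdkn1a, a p53 target, by 1.68 ± 0.45, while 20 of the 22 genes of that list were not called.

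Genes tied to the reprogramming agents were looked at next. Bmi1, which the BOiPS clones had been given, lay at -2.78 in BOiPS#1 and -1.92 in BOiPS#2, and at -1.98 to -2.65 in the other 4 clones. Over the pairs it differed by -0.00 ± 0.75, and by -1.33 with a second probe. No clone came near the MEF level of 0.37, and whether the probe sees the introduced gene is not known here. Among the polycomb genes, Ezh2, the methyltransferase of the complex, was slightly lower in every pair (-0.59 ± 0.05), and in MEF it was lower still (-1.28 against 0.88, 0.88 and 0.91). None of 18 hedgehog pathway genes and none of 30 cholesterol synthesis and LXR target genes was called, with medians of -0.00 and 0.00. With 1.92% of all genes called higher and 0.759% lower, lists of this size would hold few calls in any case. Mvk, a gene of cholesterol synthesis that is described below, was called lower and is not in that list.

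Signalling genes that were called included Grem1, a BMP antagonist (6.83 ± 1.58), and Inhba, an activin subunit (6.37 ± 3.82). Ltbp1 and Ltbp2, which store latent TGF-beta in the matrix, differed by 3.22 ± 0.96 and 4.33 ± 0.95, and by 2.14 and 0.74 with second probes. Also called were Bmp1 (4.14 ± 1.83, and 0.63 with a second probe) and the BMP target Id3 (1.84 ± 0.40). These were 6 of 28 genes of the TGF-beta and BMP list (21.4%, against 1.92% of all genes), whose median was 0.11. That median was 0.645 without the Bmi1-Oct4 pair, 0.30 without the purmorphamine-Oct4 pair and 0.04 without the tail-tip pair. Of 21 immediate early and stress genes, 4 were called higher (19%, against 1.92% of all genes): Jun (2.62 ± 0.52), Ier3, Egr1 and Fosl1. Their products include subunits of AP-1, and TGANTCA, its site, was found on either strand in 14.2% of the promoters of genes called higher, 9.52% of those called lower and 6.82% of all. The AP-1 site was in 7 of 15 promoters of called interferon genes and in 12.6% of those of called genes outside that list. It was in 0 of 5 promoters of called matrix genes and 2 of 6 of called chemokine genes. Sites of the factors NF-kB and TEAD were searched too. In the same order, NF-kB sites were in 1.26%, 0% and 0.475% of promoters, and TEAD sites in 16.1%, 17.1% and 13.2%. Whether these factors act on these genes was not tested. Of 37 Hox genes, 2 were called higher (5.41%, against 1.92% of all genes), Hoxa5 (3.35 ± 1.01) and Hoxb5 (3.19 ± 0.32).

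Of 28 imprinted genes, 3 were called higher (10.7%, against 1.92% of all genes), Mirg, Plagl1 and Igf2. A second Plagl1 probe gave a mean of 0.52. The list median was 0.12. Meg3, a maternally expressed non-coding RNA of the Dlk1-Dio3 cluster, lay at 2.23, 2.61 and 2.67 in the fibroblast-like clones and at -6.13, -4.51 and 2.20 in the sisters. The first 2 pairs thus differed by 8.36 and 7.12, and the tail-tip pair by 0.47, with both of its clones within 1 log2 unit of MEF (3.01). H19 was lower in BOiPS#1 (-2.60) than in its sister (-0.61) and differed by 4.74 and 5.98 in the other pairs, so BOiPS#1 went the other way for this gene. Among 18 control genes, 2 were called higher (11.1%, against 1.92% of all genes), B2m and Hprt. The latter encodes a purine salvage enzyme and is often used as a reference gene. Hprt lay at 2.74, 2.10 and 2.37 against -0.98, -1.83 and -0.38 in the sisters, and at -0.73 in ES and 5.11, saturated, in MEF. The median of the control genes was -0.05.

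**Figure D5:**
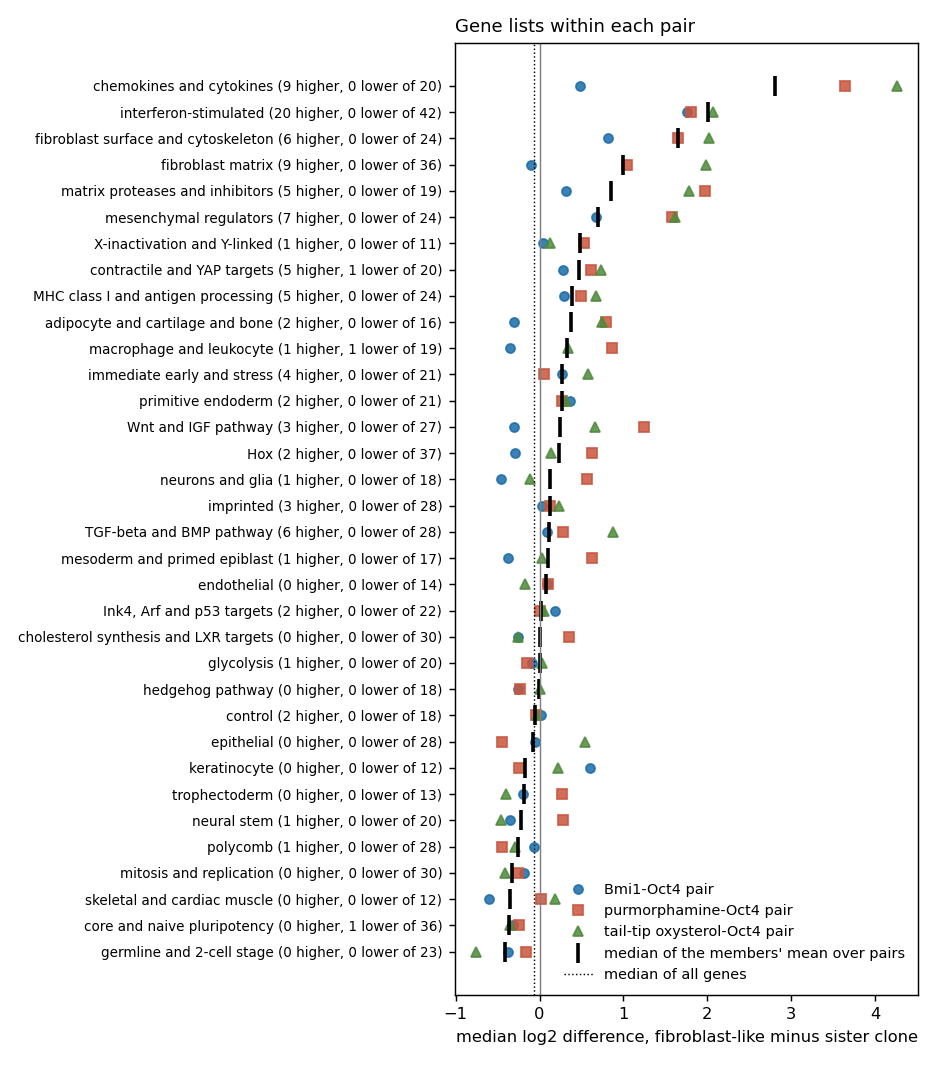
Median log2 difference between fibroblast-like and sister clones (x axis) of each of the 34 gene lists (y axis, with counts called higher and lower of those measured), by pair and over the pairs; the dotted line is the median of all genes, -0.07. The interferon list has nearly the same median in all 3 pairs (1.76 to 2.07), while chemokines (0.49 to 4.27) and fibroblast matrix (-0.10 to 1.99) spread by pair, with the Bmi1-Oct4 pair lowest.

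At 2-fold in each pair fewer genes were lower than higher, whereas by sign alone 4875 were lower in all 3 pairs and 3463 higher. Over the 34 lists, 3 members were called lower in all (Zscan10, Acta2 and Itgam). Mvk, mevalonate kinase of the cholesterol pathway, was first by its smallest difference. It lay at -2.89, -1.69 and -1.86 in the fibroblast-like clones and at 1.52, 3.17 and 2.77 in the sisters, a difference of -4.63 ± 0.23. ES (0.33) and MEF (-0.39) lay between the groups, and a second Mvk probe gave a mean of -0.18, so the transcripts that the 2 probes detect did not move together. Nmb, the peptide neuromedin B, lay at -5.57, -3.86 and -4.30 against -2.80, -1.46 and -1.64 and differed by -2.61 ± 0.19. Trmt44, a tRNA methyltransferase gene, differed by -5.28 ± 1.62, with 2 of the fibroblast-like clones not well above background. Adam1b, a sperm surface protein, was at least 6.14-fold lower. The muscle gene Ttn was called lower by its brightest probe (-3.61 ± 1.19), whereas 7 other probes gave means from -1.38 to 0.45.

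Some of the genes called higher were not fibroblast genes on these arrays. Cmpk2, a mitochondrial kinase induced by interferon, differed by 4.65 ± 1.53 and was not well above background in MEF. Meiob, a meiotic recombination gene, lay at -0.28, -0.05 and -0.32 in the fibroblast-like clones and at -3.35, -2.94 and -2.70 in the sisters. ES had it at -0.11, so for this gene the fibroblast-like clones matched ES and the sisters did not, and in MEF it was not well above background. Mog, a myelin protein gene, differed by 1.89 ± 0.19 and was likewise not well above background in MEF (other probes 0.97 and -0.37). Muc3 was at least 6.95-fold higher and the serotonin receptor gene Htr2c at least 7.28-fold. Other Htr2c probes gave means of 0.49 and 1.97.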

How the data were processed

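Arrays were read with Agilent Feature Extraction 9.5.3.1, per the file headers, and the deposited intensity is its background-subtracted processed signal, with flags for spots well above background, saturated or outlying. Further steps by the submitters: not given in the sources used here. The 43379 gene spots cover 41174 probes. Outlier spots were dropped, repeat spots were averaged on the log2 scale, and the 75th percentile of gene spots on the array was subtracted. A probe had to be well above background on 1 array or more, which 37816 were. This gave 25427 genes, each read from its brightest probe on average (8319 had a choice). RefSeq accessions named 23082 probes and symbols 9655, while 8437 kept the name in the file. Floors for bounds and for percentages of MEF ran from -7.27 to -4.51 log2 units on the 6 arrays.

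The clones, the 34 gene lists (776 of 795 members measured) and the alternatives were chosen with earlier results of these data known. The rule named Pou5f1, Sox2, Nanog and Bmi1, the 15 genes called each way with the largest smallest-pair difference and a gene symbol, up to 5 called members per list, up to 10 pluripotency genes that did not move together, and up to 10 called genes not above ES in MEF. Other list members, markers and pathway genes were named after their values were seen. Some genes of the lists are not reported here. Calls were tested on simulated data. Alternatives were normexp background (offset 50, limma 3.58.1 in R 4.3.3), quantile normalization, other scaling, filters, probe means and folds, a common floor, and leaving out each pair. Python 3.11.15, numpy 2.4.6, pandas 2.3.3 and matplotlib 3.10.9 were used.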

Additional observations from a re-analysis of the deposited data

How the results depend on the processing

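Counts of calls, medians of lists and of all genes, and the differences of named genes were recomputed with 1 choice changed at a time, as a description, while correlations, percentages of MEF, marker sums and promoter counts were not. The 488 genes called higher became 287 at 3-fold in each pair and 886 to 1153 when 1 pair was left out, which asks for fewer agreeing pairs. The 193 called lower became 69 at 3-fold, 79 with normexp background, 114 with dim signals raised to the highest floor, and 712 to 893 without 1 pair. Asking only for the same sign gave 3463 higher and 4875 lower. Of all calls 71.7% were higher, but 82.6% with normexp background. Scaling on probes detected on all arrays moved the median of all genes from -0.07 to 0.05 and gave 560 higher and 140 lower. The pluripotency median of -0.37 became -0.25 with quantile normalization and -0.25 with that scaling, and stayed negative. The epithelial median of -0.07 turned to 0.047 with that scaling, and ran from -0.20 to 0.085 (without the purmorphamine-Oct4 pair) when 1 pair was left out. The interferon median of 2.01 became 1.77 with normexp background, 1.65 with the raised floor, and 1.69 to 1.90 without 1 pair. The matrix median of 1.00 ran from 0.24 (without the tail-tip pair) to 1.50. Of 1190 recomputed values for 119 named genes, 1064 moved by less than 1 SD over the pairs and 126 moved by more. None reversed among the genes called. A change of sign in a named gene that was not called was not counted as a reversal. The cause of these shifts was not tested. No paired analysis was possible because no test was made: differences were taken within methods, and the clone numbers in the titles do not pair the samples, so they gave no block. Each clone is 1 line on 1 array, and the number of arrays limits the precision. Genes near background, saturated spots and genes whose probes disagree are the least certain.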
